A study of Homo sapiens with 15 samples.

Results

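The genes described here encode the endogenous inhibitors of matrix-degrading metalloproteinases: the tissue inhibitors TIMP1, TIMP2, TIMP3 and TIMP4, and the membrane-anchored inhibitor RECK. They were chosen by symbol, and all 5 were present among the 18858 genes of the count table. RNA was measured in MDA-MB-231, an established line of mesenchymal-like triple-negative breast cancer cells, to ask how the transcriptome follows loss of the Hippo pathway co-regulators YAP (gene YAP1) and TAZ (gene WWTR1). The 5 groups held 3 libraries each. Control cells were not transfected, siControl cells received a non-targeting siRNA pool, and siYAP, siTAZ and siYAP+TAZ cells received siRNA pools against YAP1, WWTR1 or both. All cells were of the wild-type line, the siRNA was left to act for 48 h, and cells were then cultured on gelatin for 5 to 6 h before RNA extraction. Cells of the co-knockdown took up both pools, so the knockdown of both regulators and the larger amount of siRNA cannot be told apart.

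TIMPs are secreted proteins whose netrin-like amino-terminal domain wedges into the zinc-bearing active site of a metalloproteinase and blocks it. They differ in reach. TIMP1 is a poor inhibitor of the membrane-type enzyme MMP14, TIMP2 both blocks MMP14 and, bound to it, presents the MMP2 proenzyme for activation, TIMP3 stays attached to the extracellular matrix and also inhibits ADAM17 and aggrecan-cleaving ADAMTS enzymes, and TIMP4 is the most tissue-restricted member of the family. RECK is held in the membrane by a lipid anchor, restrains MMP2, MMP9, MMP14 and ADAM10, and serves with ADGRA2 as a receptor complex for WNT7 ligands. In invadopodia, the actin-rich protrusions with which these cancer cells dissolve matrix, MMP14 is the central protease.

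TIMP4 was the only inhibitor of the 5 that passed both thresholds in any comparison. The thresholds were an edgeR adjusted p of at most 0.05 and a log2 fold change of at least 1 in either direction. It rose 3.22-fold in siYAP+TAZ and 2.71-fold in siTAZ relative to siControl, from a very low level. TIMP1 rose 1.51-fold in siYAP+TAZ, with an adjusted p under 0.05 but a fold change under the fold threshold. TIMP2, TIMP3 and RECK did not pass in a comparison with siControl, but with a term for the series of library numbers described below the adjusted p was under 0.05 for TIMP3 in siYAP+TAZ and for TIMP1, TIMP2 and TIMP3 in siTAZ. No inhibitor was lower at an adjusted p under 0.05 in any of the 8 contrasts tested. In each knockdown the same siControl libraries were the reference. In bulk RNA, fewer cells that carry a transcript and less transcript per cell cannot be told apart.

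Library depth lay between 18696737 and 30107312 counts. YAP1 was at 23.4, 64.0 and 17.6% of the siControl mean in siYAP 18, 23 and 28, where the numbers are those in the library names, and at 51.8, 50.95 and 41.5% in siYAP+TAZ 20, 25 and 30. WWTR1 was at 45.8, 14.1 and 28.8% in siTAZ 19, 24 and 29, and at 62.7, 62.1 and 71.0% in the co-knockdown. The knockdown was weakest for YAP1 in siYAP 23 and deepest for WWTR1 in siTAZ 24. In siYAP+TAZ against siControl the edgeR adjusted p was 0.072 for YAP1 and 0.20 for WWTR1. Of the markers of the line, VIM, CD44, MSN, ANXA1 and AXL each reached at least 81.3 RPKM (reads per kilobase of exon, scaled to library size) in every library. Their sum was 843 to 890 in Control, 825 to 857 in siControl, 809 to 849 in siYAP, 859 to 966 in siTAZ and, below both control groups without overlap, 707 to 822 in siYAP+TAZ. PGR was at most at 7 counts, the blood marker PTPRC at 6 and LYZ at 14, and the fibroblast marker LUM at 9. The other fibroblast marker tested, COL1A1, had 211 to 577 counts (1.08 to 3.12 RPKM). The 2 fibroblast markers summed to 1.21 to 1.59 RPKM in Control, 1.13 to 2.26 in siControl, 1.87 to 1.93 in siYAP, 1.94 to 3.16 in siTAZ and 2.24 to 2.501 in siYAP+TAZ, and the part of either sum in the results was not tested. GATA3 and EPCAM, which were listed with PGR as low in this line, were nevertheless present at 4.24 to 8.47 RPKM. The listed markers ESR1, CDH1, DCN, PDGFRA, THY1, CD3E, CD68 and HBB were not among the genes of the count table. That table holds genes with more than 5 counts in at least 1 library. The library names run in 3 series of consecutive numbers with 1 library of each group in each (16 to 20, 21 to 25 and 26 to 30). What a series stands for was not given in the sources used here, and values within each series are given below. A fit with a term for the series is quoted where it moves an inhibitor or another gene named here across a threshold.

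Per exon length, the inhibitors fell into an abundant set of TIMP1, TIMP3 and TIMP2 and a rare pair of RECK and TIMP4. In siControl, TIMP1 stood at 112 ± 16.9 RPKM (SD, n = 3), TIMP3 at 104 ± 21.0, TIMP2 at 69.8 ± 3.49, RECK at 0.945 ± 0.075 and TIMP4 at 0.924 ± 0.275. When every exonic base of the gene was counted as its length, TIMP1 and TIMP3 overlapped across libraries in all 5 groups, and TIMP2 lay below both without overlap. When the length of the longest transcript was used, TIMP1 lay above TIMP3 without overlap in siControl, siYAP and siYAP+TAZ and overlapped with it in Control and siTAZ. TIMP2 then stood at 119 RPKM in siControl, above TIMP3 and overlapping with it, so the order of the 3 depends on the length chosen. The step from the lowest of the abundant set to the highest of the rare pair was 73.8-fold in siControl and 26.1-fold in siYAP+TAZ on the first scale.

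**Figure D1:**
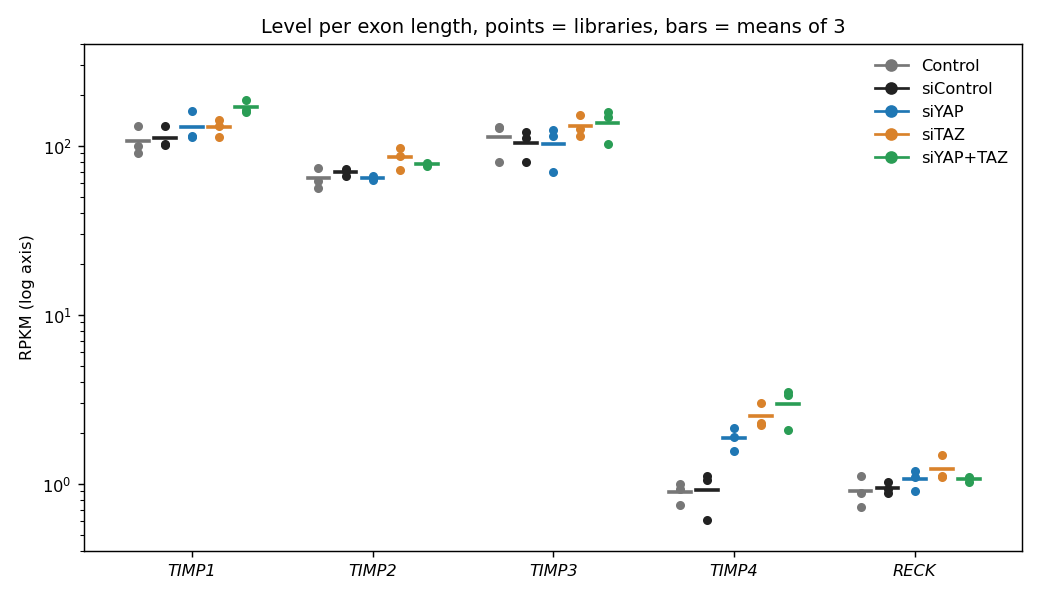
Level of each inhibitor in RPKM on a log axis, with a point for every library and a bar for each group mean (n = 3). TIMP1, TIMP2 and TIMP3 sit near 100 in every group, while TIMP4 and RECK sit near 1 in Control and siControl, and TIMP4 lies above RECK in all 3 knockdown groups.

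The order of the rare pair differed between groups. TIMP4 and RECK overlapped in Control and in siControl, where the ratio of TIMP4 to RECK per exon length was 0.691 to 1.13. It reached 1.32 to 2.36 under siYAP, 2.005 to 2.08 under siTAZ and 1.90 to 3.396 under siYAP+TAZ, and TIMP4 lay above RECK without overlap in these 3 groups on either length. Even so, TIMP4 made up only 0.767% of the summed TIMP level in siYAP+TAZ, against 0.322% in siControl. The summed level of the TIMPs was 279 to 295 RPKM in siControl, 293 to 304 in siYAP, 338 to 357 in siTAZ and 369 to 401 in siYAP+TAZ. The sum is carried by TIMP1, TIMP2 and TIMP3, and it was not tested.

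TIMP4 is encoded on the minus strand of chromosome 3 (chr3:12153068-12158912, GRCh38, GENCODE release 44), inside the synapsin gene SYN2, which runs on the other strand. The gene has 5 exons with 1194 bases. TIMP1 (chrX:47582408-47586789, plus strand) and TIMP3 (chr22:32801705-32863041, plus strand) are likewise nested on the opposite strand of a synapsin gene, SYN1 and SYN3 respectively. TIMP1 and TIMP3 share no exonic base with their host, whereas 170 bases of TIMP4, or 14.2% of its exonic length, also lie in SYN2 exons. TIMP2 (chr17:78852977-78925387, minus strand) holds the gene CEP295NL, with 224 exonic bases in common on the same strand. The lncRNA ENSG00000267601 lies inside TIMP2 on the opposite strand (chr17:78855478-78855844) and shares 367 bases, or 5.91% of the TIMP2 exonic length. RECK (chr9:36036913-36124455, plus strand) has 24 exons and lies in no other gene.

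The promoter bases of TIMP4 and TIMP1 are shown because these inhibitors passed the adjusted p in the fit without a term for the series. Each is the stretch of 250 bases before the RefSeq start (GRCh38.p14), for TIMP4 chr3:12158913-12159162 on the minus strand and for TIMP1 chrX:47582186-47582435 on the plus strand, printed 5′ to 3′ along the gene. Capitals mark matches to the SP1 motif GGGCGG on either strand.
TIMP4: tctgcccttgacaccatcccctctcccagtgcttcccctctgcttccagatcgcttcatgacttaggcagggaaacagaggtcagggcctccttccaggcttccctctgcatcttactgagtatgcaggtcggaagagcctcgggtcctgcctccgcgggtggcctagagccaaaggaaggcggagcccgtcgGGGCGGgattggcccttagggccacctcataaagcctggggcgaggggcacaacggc
TIMP1: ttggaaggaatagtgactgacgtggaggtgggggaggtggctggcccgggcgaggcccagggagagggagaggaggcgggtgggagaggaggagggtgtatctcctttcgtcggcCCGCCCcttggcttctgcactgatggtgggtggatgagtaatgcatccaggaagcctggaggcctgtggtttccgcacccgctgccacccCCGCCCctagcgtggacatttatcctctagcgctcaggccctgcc

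Motifs were searched on both strands in windows from 250 bases before to 50 after the start, which the promoter table held for 4 of the 5 genes (TIMP1, TIMP3, TIMP4 and RECK). The SP1 motif was found 1 time for TIMP4, 2 times for TIMP1, 5 times for TIMP3 and 3 times for RECK, and 45.0% of the 35116 promoters of the table held it. The core motif of the TEAD factors, through which YAP and TAZ reach DNA (GGAATG), the AP-1 motif (TGANTCA) and the TATA box (TATAAA) had no match in these 4 windows. These motifs were held by 14.03, 7.71 and 11.5% of all promoters. The searched motifs did not overlap each other at these matches. The absence of these letters says nothing of sites elsewhere.

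TIMP4 gave 28.0, 21.0 and 26.3 normalized counts in Control 16, 21 and 26, and 31.5, 29.6 and 17.2 in siControl 17, 22 and 27. It gave 98.7, 94.5 and 58.7 in siYAP+TAZ 20, 25 and 30. Every co-knockdown library lay above every library of both control groups. Relative to siControl, the log2 fold change was 1.66 (SE 0.25, 95% interval 1.12 to 2.19, edgeR adjusted p = 0.00018). Of all genes, 3.46% passed both thresholds in this comparison and 18.4% the adjusted p alone, of which the inhibitors contributed 1 and 2 of 5. The raw reads behind these values were 16 to 37 per siControl library and 64 to 88 per siYAP+TAZ library, so the size of the change is known only within its wide interval.

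In the single knockdowns the mean of TIMP4 lay between those of siControl (26.1) and siYAP+TAZ (84.0), at 52.7 in siYAP and 70.6 in siTAZ. It gave 64.6, 84.4 and 63.0 normalized counts in siTAZ 19, 24 and 29, all above siControl. This was a log2 fold change of 1.41 (SE 0.26) with an adjusted p of 0.0087 in edgeR, in a comparison where 0.212% of genes passed both thresholds. The call rested on siTAZ 24, the library with the deepest WWTR1 knockdown, since without it the log2 fold change was 1.27 with an adjusted p of 0.063. In siYAP 18, 23 and 28 TIMP4 gave 53.6, 60.4 and 44.2 normalized counts, again above every siControl library. The difference was 1.002 on the log2 scale (SE 0.26), but the edgeR adjusted p was 0.076, so the gene was not called, and 0.0955% of genes were. With the term for the series it was called, at a log2 fold change of 1.004 and an edgeR adjusted p of 0.0046, and the genes called rose from 18 to 72. With DESeq2 as the study set it, the same contrast had a log2 fold change of 1.02 and an adjusted p of 0.028. Leaving out siYAP 23, with the weakest YAP1 knockdown, gave a log2 fold change of 0.91.

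Differences of TIMP4 between the 3 knockdowns did not pass without a term for the series. The log2 difference of siYAP+TAZ from siYAP was 0.65 (95% interval 0.16 to 1.14, edgeR adjusted p = 0.12, or 0.016 with the term) and that from siTAZ 0.24 (interval -0.25 to 0.73, adjusted p = 0.63). The siTAZ libraries lay above the siYAP libraries without overlap, by 0.41 (interval -0.09 to 0.91, adjusted p = 0.48). The co-knockdown fell short of the sum of the single effects by a log2 difference of -0.76 (SE 0.35), which did not pass (unadjusted p = 0.042, adjusted p = 0.83). Both thresholds were passed by 0.742, 0.78, 0.0636 and 0.0053% of genes in these 4 contrasts, and by 0 of the 5 inhibitors. At an unadjusted p under 0.05, edgeR, DESeq2 and limma-voom each counted 3, 1, 1 and 1 of the 5, beside 19.2, 19.3, 13.7 and 5.85% of all genes in edgeR. The targets themselves differed between these groups. WWTR1 in siYAP+TAZ was at 2.21 times its level in siTAZ, without overlap (edgeR adjusted p = 0.065). YAP1 in siYAP+TAZ was at 1.37 times its level in siYAP, with overlap. The part of these target levels in the contrasts was not tested.

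The synapsin host SYN2, which encodes a synaptic vesicle protein, gave 2, 3 and 0 reads in siControl and 9, 9 and 6 in siYAP+TAZ. SYN2 was called, beside 3.46% of all genes, and its summed reads per depth were 5.35 times those of siControl (exact 95% interval 2.001 to 18.0, for counting error only). The table holds genes with more than 5 counts in at least 1 library, which no siControl library reached for SYN2. Its being higher may thus be partly fixed by that filter. The strand setting of the read counting was not given in the sources used here. Because the genes share exonic bases on opposite strands, reads of TIMP4 and SYN2, and likewise of TIMP2 and ENSG00000267601, cannot be told apart there if strand was ignored. The reads of SYN2 numbered at most 9 in any co-knockdown library, against 64 to 88 for TIMP4. Of the stretches of 50 bases in TIMP4 exons, 10.6% occur in other genes on either strand. This share counts again the bases in common with SYN2. The value is 7.78% for TIMP2, which counts again the bases in common with CEP295NL and ENSG00000267601, and 0% for TIMP1, TIMP3 and RECK.

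**Figure D2:**
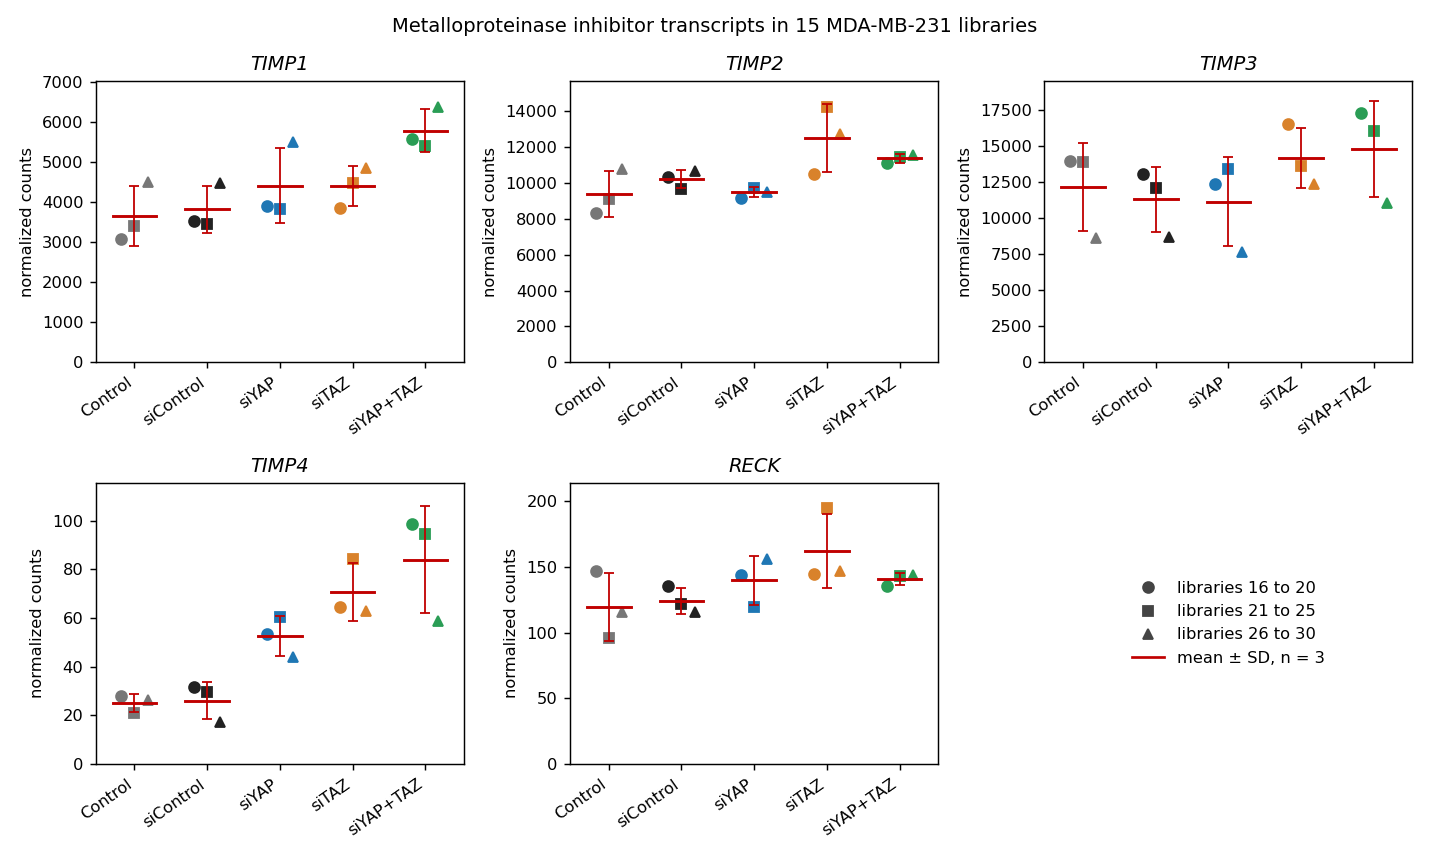
Normalized counts of the 5 inhibitors in each library by group, with circles, squares and triangles for the 3 series of library numbers and red bars for the mean ± SD (n = 3). TIMP4 lies above siControl in all knockdown libraries, TIMP1 in all co-knockdown libraries, and libraries 26 to 30 are lowest for TIMP3 and highest for TIMP1 within each group.

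TIMP1, which besides its inhibitor role acts as a cytokine-like ligand of CD63, gave 3524, 3439 and 4482 normalized counts in siControl and 5574, 5384 and 6377 in siYAP+TAZ. The co-knockdown libraries lay above those of siControl and above the 3081, 3389 and 4499 of Control. Relative to siControl it rose by 0.60 on the log2 scale (SE 0.17, 95% interval 0.24 to 0.96, edgeR adjusted p = 0.022). The adjusted p rose to between 0.074 and 0.086 when siControl 17, siControl 22 or siYAP+TAZ 30 was left out. In the single knockdowns TIMP1 gave 3902, 3831 and 5486 normalized counts in siYAP and 3850, 4482 and 4842 in siTAZ, overlapping with siControl. The log2 fold changes were 0.21 (adjusted p = 0.70) and 0.20 (adjusted p = 0.61). The co-knockdown differed from siYAP by 0.39 (interval 0.04 to 0.75, adjusted p = 0.21) and from siTAZ by 0.40 (interval 0.04 to 0.75, adjusted p = 0.20), so neither passed without a term for the series. With that term the edgeR adjusted p was 9.3e-05 against siYAP and 0.00015 against siTAZ, for log2 differences of 0.41 and 0.40, and TIMP1 was higher in the co-knockdown in 3 of 3 series for both.

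TIMP2, the inhibitor that pairs with MMP14, was the steadiest of the abundant transcripts. It gave 10358, 9679 and 10685 normalized counts in siControl and 11126, 11430 and 11583 in siYAP+TAZ, which did not overlap. The log2 fold change was only 0.15 (interval -0.06 to 0.36, edgeR adjusted p = 0.33). In siTAZ the values were 10505, 14271 and 12765, with siTAZ 24 highest, and the log2 fold change was 0.29 (adjusted p = 0.14). The siYAP libraries gave 9185, 9755 and 9512, a log2 difference of -0.11 (adjusted p = 0.75). All siTAZ libraries lay above all siYAP libraries, a log2 difference of 0.40 (SE 0.10) with an edgeR adjusted p of 0.074. With DESeq2 the adjusted p was 0.025, and with edgeR it ranged up to 0.46 without siTAZ 24.

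TIMP3, the matrix-bound inhibitor, varied more within a group than between groups. It gave 13057, 12141 and 8727 normalized counts in siControl and 17303, 16085 and 11066 in siYAP+TAZ, with overlap. The log2 fold change was 0.39 (interval -0.20 to 0.98, edgeR adjusted p = 0.37). In siTAZ it gave 16521, 13630 and 12409 (log2 fold change 0.33, adjusted p = 0.62), and in siYAP 12401, 13461 and 7639 (log2 fold change -0.02, adjusted p = 0.99). The lowest library of every group was that of the series 26 to 30, at 0.591 to 0.823 times the mean of the other two. The same libraries held the highest TIMP1 of every group, at 1.16 to 1.42 times the mean of the other two, and the lowest TIMP4 in 4 of 5 groups. Whether this series was prepared apart from the others was not given in the sources used here.

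Each knockdown library was also set against the siControl library of its own series. In siYAP+TAZ, TIMP3 was 1.27 to 1.33 times siControl in the 3 series, TIMP1 1.42 to 1.58 times, TIMP4 3.14 to 3.42 times, TIMP2 1.07 to 1.18 times and RECK 1.002 to 1.24 times. In siTAZ, TIMP4 was 2.05 to 3.67 times siControl and TIMP3 1.12 to 1.42 times. In siYAP, TIMP4 was 1.70 to 2.57 times siControl and TIMP1 1.11 to 1.22 times, while TIMP3 was higher in 1 of 3 series. All 5 inhibitors were higher in 3 of 3 series in siYAP+TAZ and in siTAZ, though by as little as 1.002 and 1.01 times. Of all genes, 27.6% and 22% were higher in 3 of 3 series in these comparisons, which share the siControl libraries. In the edgeR fit with a term for the series, TIMP3 rose in siYAP+TAZ against siControl (log2 fold change 0.38, adjusted p = 0.0012). In siTAZ against siControl the same fit gave 0.21 for TIMP1 (adjusted p = 0.047), 0.28 for TIMP2 (adjusted p = 0.021) and 0.35 for TIMP3 (adjusted p = 0.0095). TIMP2 and TIMP3 differed from siYAP by 0.26 (adjusted p = 0.024) and 0.42 (adjusted p = 0.0014) in siYAP+TAZ and by 0.39 (adjusted p = 0.0032) and 0.38 (adjusted p = 0.0076) in siTAZ. None of these reached the fold threshold.

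**Figure D3:**
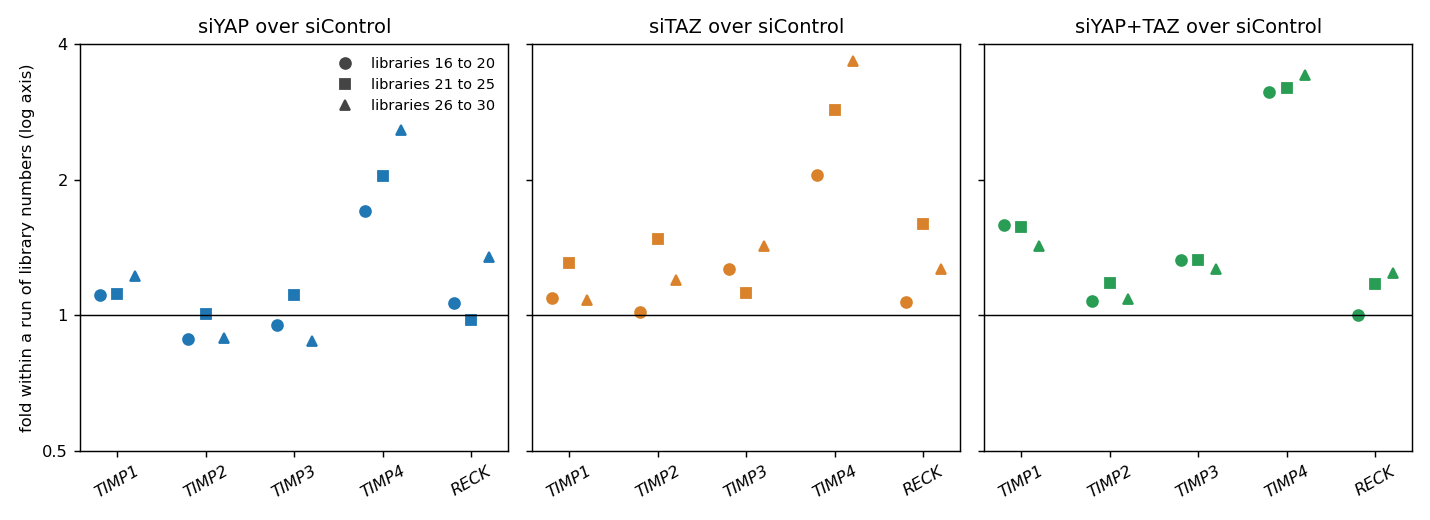
Fold of each inhibitor in a knockdown library over the siControl library of the same series of numbers, on a log axis with 1 marked by a line; symbols stand for the 3 series. TIMP4 lies between 1.70 and 3.67 in all 9 knockdown libraries, and the 3 TIMP3 values of siYAP+TAZ lie within 1.27 to 1.33.

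RECK, the membrane-anchored inhibitor, was at 135, 122 and 116 normalized counts in siControl and 136, 143 and 144 in siYAP+TAZ. These values did not overlap, yet siYAP+TAZ 20 exceeded siControl 17 by less than 1 count, and Control 16 reached 147. The log2 fold change was 0.18 (interval -0.17 to 0.53, edgeR adjusted p = 0.52). In siTAZ RECK gave 145, 195 and 147, with siTAZ 24 again highest, and a log2 fold change of 0.38 (adjusted p = 0.26). In siYAP it gave 144, 119 and 156, with a log2 fold change of 0.16 (adjusted p = 0.79).

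Between siControl and Control, the effect of transfection itself, all 5 inhibitors overlapped. The log2 fold changes lay between -0.10 and 0.12, and edgeR called 0 of the 5 and 0% of all genes. At an unadjusted p under 0.05 the count was 0 of 5 in edgeR, DESeq2 and limma-voom, beside 2.11% of all genes in edgeR. The intervals still allowed a TIMP4 change from -0.54 to 0.68 on the log2 scale. Groups without overlap were seen for 4 of the 5 inhibitors in siYAP+TAZ against siControl, against 36.4% of all genes. The numbers were 1 of 5 in siYAP against 19.5%, 2 of 5 in siTAZ against 20.9%, and 0 of 5 between siControl and Control against 5.83%.

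**Figure D4:**
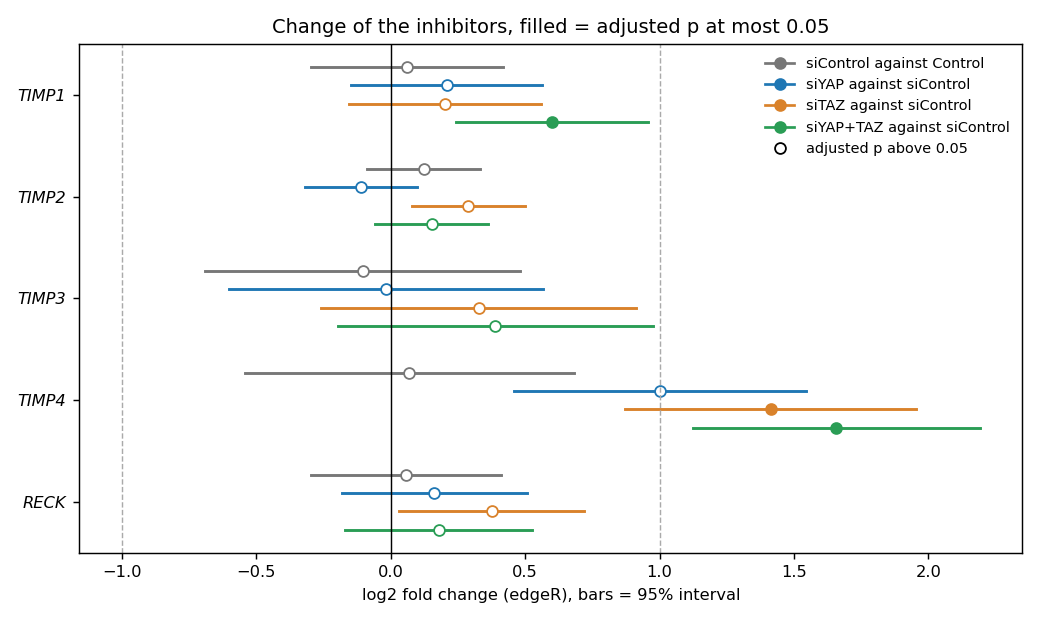
Log2 fold change of each inhibitor from edgeR, with bars for the 95% interval, filled points for an adjusted p of at most 0.05 and dashed lines at the fold threshold. The filled points are TIMP1 in siYAP+TAZ (0.60) and TIMP4 in siTAZ (1.41) and siYAP+TAZ (1.66), and all siControl against Control intervals include 0.

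The target proteases were examined alongside their inhibitors. Of the 23 matrix metalloproteinases listed, 17 were tested, and 4 passed both thresholds in siYAP+TAZ, all higher, in a comparison where 3.46% of all genes passed. The median log2 fold change was 0.45, beside -0.0048 over all genes, and stayed at 0.45 with genes near zero set to their bound. MMP11, a stromelysin, gave 20.4, 21.3 and 12.9 normalized counts in siControl and 63.0, 61.2 and 67.0 in siYAP+TAZ, a log2 fold change of 1.79 (SE 0.31, adjusted p = 0.00047). It rose in siTAZ too, by 1.56 (adjusted p = 0.012), the only metalloproteinase called there. The others called in the co-knockdown were the gelatinases MMP2 and MMP9 and the collagenase MMP13, which were near zero. With DESeq2 MMP13 was not called (adjusted p = 0.061). MMP2 had 0, 1 and 0 reads in siControl 17, 22 and 27 and 2, 2 and 14 in siYAP+TAZ 20, 25 and 30, MMP9 had 3, 0 and 1 against 3, 6 and 25, and MMP13 had 2, 2 and 1 against 6, 10 and 6. Most reads of MMP2 and MMP9 thus came from siYAP+TAZ 30. Summed and scaled to depth, MMP13 was at 4.90 times siControl (exact 95% interval 1.81 to 16.6, for counting error only). MMP9 was at 9.47 times (interval 3.38 to 36.8), or 4.05 times (interval 1.13 to 18.0) without siYAP+TAZ 30. MMP2 was at 20.1 times (interval 3.17 to 836), or 7.20 times (interval 0.71 to 355) without it, and without this library the metalloproteinases called numbered 2. The table holds genes with more than 5 counts in at least 1 library. MMP2, MMP9 and MMP13 met this only through knockdown libraries, so their being higher there is partly fixed by that filter, whereas MMP11 and all 5 inhibitors met it in control libraries. MMP1, the interstitial collagenase, overlapped between siControl and siYAP+TAZ (log2 fold change 0.35, adjusted p = 0.63).

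MMP14, the membrane-type protease that TIMP2 and RECK restrain, rose from 13367, 13642 and 14092 normalized counts in siControl to 23628, 26105 and 22859 in siYAP+TAZ. This rise of 0.82 on the log2 scale (SE 0.10, adjusted p = 2.3e-05 in edgeR) stayed under the fold threshold. In siTAZ it rose by 0.62 (adjusted p = 0.0047). In siYAP the difference was 0.33 (adjusted p = 0.15, or 0.035 with the term for the series), and MMP14 was 1.19 to 1.29 times siControl in the 3 series. The log2 ratio of MMP14 to TIMP2 per exon length was 0.85 ± 0.07 (SD, n = 3) in siControl, 1.28 ± 0.05 in siYAP, 1.17 ± 0.14 in siTAZ and 1.51 ± 0.11 in siYAP+TAZ. Each knockdown group lay above siControl without overlap. The exact two-sided permutation test gave p = 0.1 for each, the smallest that 3 against 3 libraries allow, and p = 0.1 when adjusted over the 3 comparisons. The untransfected Control libraries 16, 21 and 26 had ratios of 1.397, 0.98 and 0.73, so the siYAP+TAZ libraries, at 1.51, 1.62 and 1.41, lay above all of Control, though the lowest of them exceeded Control 16 only narrowly. The siYAP and siTAZ libraries overlapped with Control.

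Of the 9 listed ADAM and ADAMTS proteases that a TIMP or RECK inhibits, 6 were tested and edgeR called 0 in siYAP+TAZ, with a median log2 fold change of 0.21, or 0.29 without the gene near zero. At an unadjusted p under 0.05 edgeR counted 3, beside 30.3% of all genes. ADAMTS1, an aggrecan- and versican-cleaving protease, gave 2532, 2341 and 1781 normalized counts in siControl and 1113, 1228 and 603 in siYAP+TAZ, lower without overlap. The log2 fold change was -1.18 with an edgeR adjusted p of 0.090, and ADAMTS1 was the gene called by DESeq2 (adjusted p = 0.039), by limma-voom (0.020) and by edgeR with the term for the series (0.0043). In siTAZ it gave 1448, 643 and 677, a log2 fold change of -1.26 (edgeR adjusted p = 0.18, or 0.0095 with the term). ADAM17, the shedding enzyme that TIMP3 blocks, rose by 0.29 (adjusted p = 0.029), under the fold threshold. ADAM10, a target of TIMP1, TIMP3 and RECK, differed by 0.13 (adjusted p = 0.45).

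Among 13 listed binding partners of TIMPs and RECK, 11 were tested, 2 were called in siYAP+TAZ (3.46% of all genes were), and the median log2 fold change was 0.13. LRP1, the endocytic receptor that clears TIMPs and metalloproteinases from the cell surface, gave 2190, 1966 and 1929 normalized counts in siControl and 4344, 4750.5 and 3144 in siYAP+TAZ (log2 fold change 1.01, SE 0.30, adjusted p = 0.039). WNT7B, a ligand read by the complex of RECK and ADGRA2, rose from 805, 781 and 450 to 2681, 2722 and 1341 (log2 fold change 1.72, SE 0.37, adjusted p = 0.0085). In siYAP and siTAZ the log2 fold change of WNT7B was 0.74 and 0.70 (edgeR adjusted p = 0.48 and 0.40, or 1.8e-06 and 8.1e-07 with the term for the series). LRP1 sat just past the fold threshold. It was under it with that term (log2 fold change 0.99, edgeR adjusted p = 0.0048) and with limma-voom (log2 fold change 0.98). Leaving out siControl 17, 22 or 27 or siYAP+TAZ 20 or 25 brought the number called down to 1. Of those under the fold threshold, EFEMP1, a matrix fibulin that binds TIMP3, fell by 0.95 on the log2 scale (adjusted p = 4.8e-06), and the Wnt co-receptor LRP5 rose by 0.72 (adjusted p = 9.6e-06). EFEMP1 in siYAP differed by -0.30 (edgeR adjusted p = 0.18, or 0.010 with the term).

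Other inhibitors of metalloproteinases were represented by 3 of 6 listed genes, with a median log2 fold change of 1.69, and 2 were called in siYAP+TAZ, beside the same 3.46% of all genes. These were the testican proteoglycans SPOCK1 and SPOCK3, which inhibit membrane-type metalloproteinases. SPOCK1 gave 26.4, 24.0 and 10.7 normalized counts in siControl and 63.0, 72.0 and 66.1 in siYAP+TAZ (log2 fold change 1.69, SE 0.31, adjusted p = 0.00083). SPOCK3 gave 17.0, 20.3 and 5.4 in siControl and 60.6, 62.3 and 45.9 in siYAP+TAZ (log2 fold change 1.94, SE 0.39, adjusted p = 0.0017). Both, like TIMP4, had under 100 counts in every library. The third gene, the Kunitz-type inhibitor TFPI2, differed by 0.13 (adjusted p = 0.30). Among 12 other proteins with the netrin-like fold of TIMPs, 8 were tested, edgeR called 0 in siYAP+TAZ, and the median log2 fold change was 0.20, or 0.15 with genes near zero at their bound. DESeq2 and limma-voom also called 0 of them. In edgeR 3 had an unadjusted p under 0.05, or 37.5% beside 30.3% of all genes, and 1 passed the adjusted p alone, or 12.5% beside 18.4%. With the term for the series the Wnt antagonist SFRP1 was called (log2 fold change 1.35, edgeR adjusted p = 0.046). Of the 45 tested genes of the 5 lists, edgeR called 8 in siYAP+TAZ, or 17.8% beside 3.46% of all genes. Of these 8, MMP2, MMP9 and MMP13 entered the table only through knockdown libraries, so the share is partly fixed by the count filter. Over all genes, 72 of those called entered in this way. At the adjusted p alone 15 passed, or 33.3% beside 18.4%. In siYAP edgeR called 0, and 7 had an unadjusted p under 0.05, or 15.6% beside 11.9% of all genes. In siTAZ it called only MMP11, while 3 passed the adjusted p alone, or 6.67% beside 2.03% of all genes, and 12 had an unadjusted p under 0.05, or 26.7% beside 16%. With the term for the series 3 were called in siTAZ, beside 0.806% of all genes, with MMP2 (5, 3 and 6 reads in siTAZ 19, 24 and 29) and ADAMTS1 added. The call of MMP2 is again partly fixed by the count filter, which it met only through knockdown libraries. In siYAP the fit with the term called MMP9, at 9, 10 and 24 reads in siYAP 18, 23 and 28 (log2 fold change 3.14, edgeR adjusted p = 0.0039, against 0.082 without the term), beside 0.382% of all genes. MMP9 too entered the table only through knockdown libraries. Set against a floor of 3 reads in each siControl library, it was at least 4.62 times siControl.

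**Figure D5:**
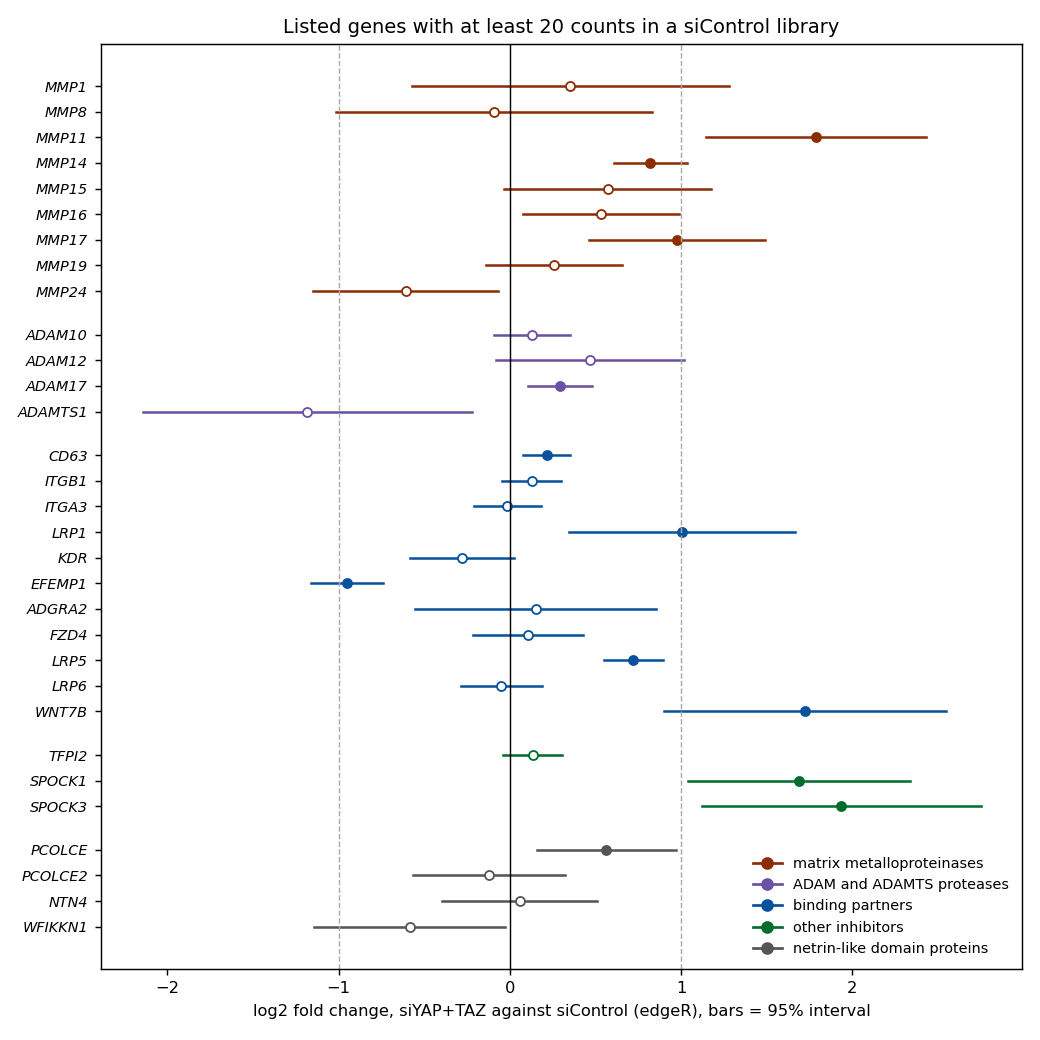
Log2 fold change in siYAP+TAZ against siControl for the 31 listed proteases, partners, other inhibitors and netrin-like proteins with at least 20 counts in a siControl library, with 95% intervals from edgeR; filled points have an adjusted p of at most 0.05 and dashed lines mark the fold threshold. MMP11, WNT7B, SPOCK1 and SPOCK3 lie between 1.69 and 1.94, MMP14 at 0.82 and EFEMP1 at -0.95.

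The genes whose log2 CPM most resembled that of an inhibitor over the 15 libraries were sought by Pearson's r among the 13209 genes whose mean normalized count reached 20. For TIMP4 these were TSPAN15, a tetraspanin (r = 0.98), MLPH, a melanosome transport adaptor (0.95), and HFE, an iron regulator of the MHC class I fold (0.95). For TIMP1 they were MMP24OS (0.98), PDLIM4 (0.97) and PDK3 (0.97). For TIMP2 they were TAB1 (0.96), PACS1 (0.96) and IQCE (0.95), for TIMP3 TMEM51 (0.94), ID3 (0.94) and EDIL3 (0.94), and for RECK TMEM141 (0.89), TM9SF4 (0.85) and PSORS1C1 (0.84). By Spearman's rho, TMEM141 stayed in first place for RECK, TAB1 took the second place for TIMP2 and TSPAN15 the third for TIMP4, while HFE went to place 39. Libraries of a group share their treatment and those of a series may share their handling, so these values are a description.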

How the data were processed

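Polyadenylated RNA of 15 libraries was sequenced by the authors, who aligned reads with STAR 2.4.2a to GRCh38 and deposited raw read counts per gene from STAR. Deposited normalized and rlog values, and the authors' own DESeq2 fold changes and p-values, were not used. Count columns were assigned to samples by name, with 0 unmapped. After TMM scaling, all 15 libraries entered the quasi-likelihood test of edgeR 4.0.16 under R 4.3.3 (robust, 5 groups, no block, no added filter), with Benjamini-Hochberg adjustment over 18858 genes. Per the study's supplement, the libraries come from 3 independent experiments, but which libraries form an experiment was not given. Libraries of the same series of numbers deviated together (r over 0.1) in 18 of 18 pairs without siTAZ and in 26 of 30 in all, so a fit with the series as a block is given where it changes a result. Normalized counts are scaled to the mean TMM library size. RPKM used exon lengths of GENCODE release 44, matched by name for 83.2% of genes. Named were the inhibitors, siRNA targets, overlapping genes, listed genes called in a knockdown, MMP14, MMP2, MMP9, MMP1, ADAM10, ADAM17 and the 3 most similar genes of each inhibitor. EFEMP1, LRP5, TFPI2, ADAMTS1 and SFRP1 were added after their values were seen. The inhibitors, lists and rules were chosen with earlier results of these data known. Scripts were tested on simulated data. Alternatives were DESeq2 1.42.0, limma-voom (limma 3.58.1), other scalings and filters, glmTreat, a block for the series of library numbers, Control as reference, and each library left out.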

Additional observations from a re-analysis of the deposited data

Results flagged for a closer look

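WWTR1, the target of the TAZ siRNA, met the criterion of a tested difference between the single knockdowns. It was lower in siTAZ than in siYAP, with a log2 difference of -1.73 (edgeR adjusted p = 0.041), in all 3 siTAZ libraries.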

How the results depend on the processing

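TIMP4 kept a log2 fold change of 1.45 to 1.87 in siYAP+TAZ against siControl, and its call, in 16 of 17 alternatives. With glmTreat, which tests against a fold threshold of 1 itself, its estimates of 1.66 in siYAP+TAZ and 1.41 in siTAZ did not pass (adjusted p = 0.36 and 1), and the calls fell to 0 among metalloproteinases, 0 among binding partners and 0 among other inhibitors. TIMP4 in siYAP was called with DESeq2 (1.02) and with the replicate block (1.004, adjusted p = 0.0046). Metalloproteinases numbered 2 with at least 10 reads in 3 libraries and 1 with filterByExpr, since MMP2, MMP9 and MMP13 have few counts. Binding partners numbered 1 with limma-voom and 1 with the block. ADAM and ADAMTS genes called numbered 1 with DESeq2, limma-voom, no robust estimation or the block, and 2 against Control, and netrin-like genes 1 with the block. Small differences that were not called changed sign: TIMP1 in siTAZ against siYAP to 0.0097 with limma-voom and with the block, TIMP3 in siYAP to 0.028 with library size only, and TIMP2 in siYAP to 0.012 against Control. The cause was not tested.

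The block was the series of library numbers. The labels do not say that a series is an experiment, so the block stayed an alternative. Deviations correlated at 0.19 to 0.62 in the 18 same-series pairs without siTAZ. Over all 30 the range was -0.05 to 0.62 with a median of 0.39. Across series it was -0.32, but series 16 to 20 and 21 to 25 were alike (median 0.24, up to 0.39, beside 0.19 within 21 to 25), and mainly 26 to 30 stood apart (medians -0.45 and -0.33, beside 0.54 within). The 4 same-series pairs under 0.1 all held siTAZ 24, and 10 of 15 libraries were closest to their own series. With the block, genes called rose from 652 to 831 in siYAP+TAZ, from 18 to 72 in siYAP, from 40 to 152 in siTAZ, from 140 to 261 and 147 to 276 in siYAP+TAZ against siYAP and siTAZ, from 12 to 54 between the single knockdowns and from 1 to 27 for the departure from additivity. Beyond the adjusted p values given with each inhibitor, TIMP1 in siYAP+TAZ had one of 5.8e-08 with it, and RECK passed in no contrast.

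Leaving out each library gave 1.20 to 1.57 for TIMP4 in siTAZ and -0.17 to 0.19 for TIMP3 in siYAP. For siControl against Control it gave -0.070 to 0.24 for TIMP1, -0.30 to 0.051 for TIMP3, -0.10 to 0.28 for TIMP4 and -0.082 to 0.24 for RECK. It gave -0.11 to 0.18 for TIMP1 in siTAZ against siYAP, -0.064 to 0.24 for TIMP3 in siYAP+TAZ against siTAZ, -0.10 to 0.10 for RECK in siYAP+TAZ against siYAP, and departures from additivity of -0.14 to 0.074 for TIMP2 and -0.13 to 0.25 for TIMP3. Metalloproteinases called ranged from 2 to 5, with 2 without siControl 17, siControl 22 or siYAP+TAZ 30, and binding partners from 1 to 2.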
